A study of Mus with 16 samples.

Results

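The transcripts described here are the 200 nuclear transcripts with the highest mean abundance in mouse epiblast stem cells, taken from 116747 transcripts listed in each of 16 bulk libraries. They were chosen by averaging TPM over all 16 libraries, after leaving out the mitochondrial transcripts, of which the tables hold 13 of the 38 IDs named for exclusion. TPM, a length-scaled abundance, divides reads by the effective length of a transcript and scales each library to the same sum. Because these values chose the members, their levels and their share are descriptions. The first transcript outside, ENSMUST00000117447.2, had a mean of 617.3 TPM, beside 617.8 TPM for the last one inside, ENSMUST00000015800.16, so the border is not a step in abundance. The next one up, ENSMUST00000103009.5, had 642 TPM, and the next one down, ENSMUST00000173192.2, had 611 TPM. ENSMUST00000117447.2 stood at 0 to 0.554 TPM in the 4 SpretB6 libraries and at 657 to 952 TPM in the 12 others.

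Epiblast stem cells are pluripotent cells grown in culture that correspond to the embryo's epiblast after implantation. Every library comes from F1 hybrid cells with C57Bl/6J, a laboratory strain, as 1 parent and a wild-derived inbred strain as the other. The other parent distinguishes the 4 crosses, which are labelled CastB6, MolfB6, PwkB6 and SpretB6 and hold 4 libraries each. Total RNA was depleted of ribosomal RNA and sequenced in bulk. Growth and treatment are given in the labels only by reference to an earlier publication. The sources used here do not state sex or passage, nor whether the libraries of a cross came from separate lines or cultures. A p-value here therefore sets a difference between crosses against the spread among libraries of a cross, part of which may be technical. The libraries held between 42596559 and 72364991 estimated counts. In what follows, TPM with ± is the mean and SD of a cross (n = 4), a log2 fold change with ± carries its SE, and adjusted p is from edgeR's quasi-likelihood test. Since these are bulk samples, fewer cells with a transcript and less of it per cell cannot be told apart.

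The most abundant messenger RNAs of a growing mammalian cell usually come from a small number of housekeeping functions, such as the ribosome, translation, the cytoskeleton and energy metabolism. Total RNA was used here, and which members are messenger RNAs is not known. Many of these genes are compact and have processed copies elsewhere in the genome with nearly the same sequence. Reads from such a gene and its copies are hard to assign, and a quantifier that works on transcripts divides them. The files name transcripts by Ensembl ID without gene symbols, and 0 of the 200 IDs could be matched to the gene table used here. The members are therefore described by ID, length and level, with no gene name, function, genome position or sequence. The epiblast identity of the cells could not be checked against marker genes for the same reason.

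Abundance fell steeply over the first ranks and slowly after them. ENSMUST00000179797.3, of 449 bases, had a mean of 56576 TPM over 16 libraries, or 5.66% of all TPM. Its TPM was 49588, 52114, 52301 and 64343 in SpretB6 and 61654, 54789, 59940 and 41266 in PwkB6 (libraries in the order of their numbers). It was 59467, 72088, 55549 and 55523 in MolfB6 and 54043, 53353, 62072 and 57125 in CastB6. The ranges of the 4 crosses overlap, and both the highest library, MolfB6 2, and the lowest, PwkB6 6, stood apart from their own cross. The second transcript, ENSMUST00000188231.2, of 681 bases, had 13041 TPM and ENSMUST00000042235.15, of 1794 bases, had 7636 TPM. Of the 200, 6 exceeded 5000 TPM, 39 exceeded 2000 and 114 exceeded 1000, with a median of 1105 TPM. The next 800 transcripts by mean TPM, used below for comparison, had a median of 210 TPM.

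**Figure D1:**
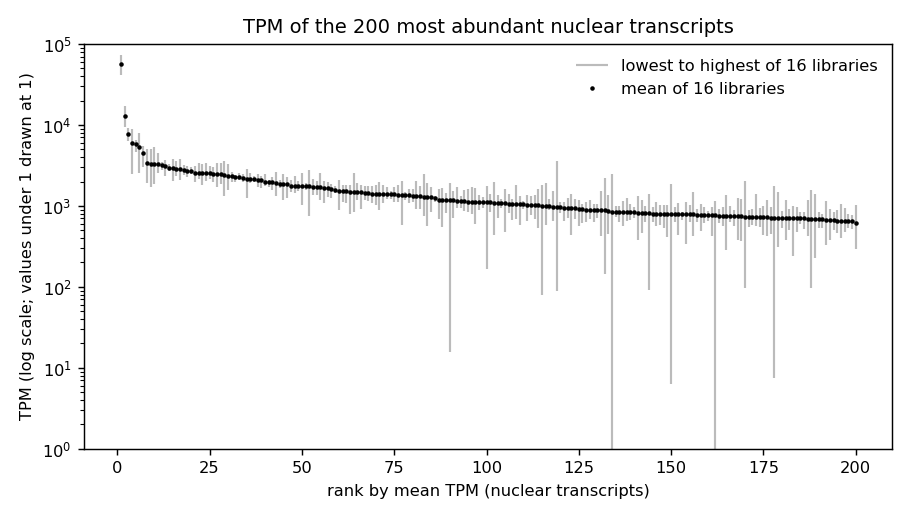
Mean TPM (black points) and the range from the lowest to the highest of 16 libraries (grey lines) against rank for the 200 transcripts, on a log axis with values under 1 drawn at 1. The curve falls from 56576 TPM to 617.8 TPM, and a few members reach far below the rest in some libraries, 2 of them down to 0.

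Together the members took 35.5% ± 1.86 of all TPM (SD, n = 16) but 17.6% ± 1.34 of the estimated counts. TPM gives a short transcript more weight per read. Mitochondrial transcripts took 8.89% ± 1.16 of TPM, and without them the members' share was 39% ± 2.21. The 10 highest members held 10.9% ± 1.07 of all TPM, the other 190 held 24.6% ± 1.18, and the next 800 transcripts held 19.9% ± 0.782 (SD, n = 16 each).

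The members were short. Their median length was 597 bases, against 929.5 among the next 800, 1838 over all tested transcripts and 1049 over all listed ones. Of the 200, 102 were under 600 bases, 152 under 1000 and 9 had 2000 or more. The 102 shortest held 20.6% ± 1.38 of all TPM but 5.17% ± 0.542 of the estimated counts, while the 9 longest held 1.3% ± 0.0629 of TPM and 2.5% ± 0.134 of the counts (SD, n = 16). Ranked by mean CPM (reads scaled to library size, with no correction for length), 103 of the 200 would remain members, and the median length of that list would be 1905 bases. The 97 members outside that list had a median of 491 bases, and 17 members lay below rank 1000 by reads.

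The extremes of length show how the scale acts. ENSMUST00000215151.2 has 129 bases and a mean effective length of 14.7 bases, the stretch in which a fragment can start. It had 1618 reads on average, rank 6488 by reads, yet 2171 TPM and rank 35. Its TPM ran from 1256 (CastB6 1) to 2845 (PwkB6 3), with reads from 748 to 2119. The effective length differed by at most 1.02 times between libraries, so this range is one of reads and library totals. ENSMUST00000210267.2, of 151 bases, had 2352 reads and 1669 TPM. At the other end, ENSMUST00000047864.11, of 3089 bases, had 124682 reads and 844 TPM. ENSMUST00000021698.13, of 2852 bases, had 259311 reads and 1855 TPM. Short members therefore rest on far fewer reads at the same TPM, although every member had a mean of at least 1618 reads per library.

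**Figure D2:**
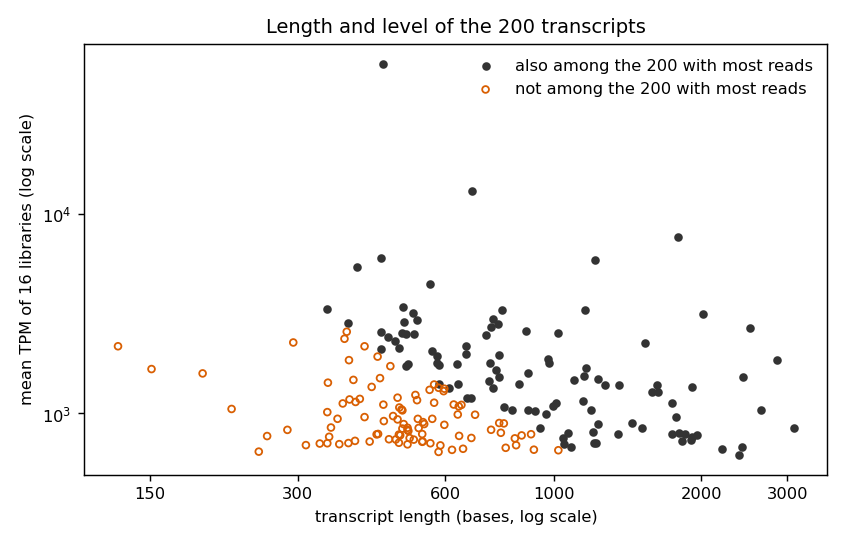
Mean TPM over 16 libraries against transcript length in bases, both on log axes, 1 point per member. The 103 filled points are also among the 200 nuclear transcripts with most reads, and the 97 open points, which are not, have a median of 491 bases.

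Shares by cross overlapped. The members took 34, 36.7, 37.2 and 35% of TPM in the CastB6 libraries (mean 35.7% ± 1.47), and 36.6, 39, 36.6 and 35.5% in MolfB6 (mean 36.9% ± 1.48). They took 36.7, 36.7, 35 and 31.1% in PwkB6 (mean 34.9% ± 2.63), and 33.9, 34, 33.9 and 36.1% in SpretB6 (mean 34.5% ± 1.11; each SD is over 4 libraries). The means ran from 34.5 to 36.9% with SDs of 1.11 to 2.63, and no test was run on a sum over chosen members. In estimated counts the lowest share was 13.7% in PwkB6 6 and the highest 19.7% in MolfB6 2.

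**Figure D3:**
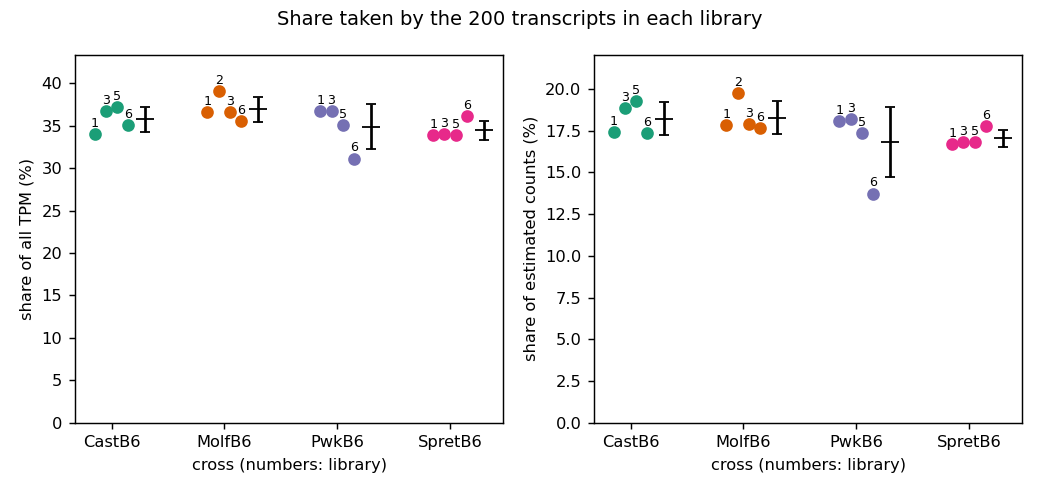
Share of all TPM (left) and of estimated counts (right) taken by the 200 transcripts, in percent, 1 numbered point per library, with the mean and SD of each cross as bars beside the points. PwkB6 6 is lowest on both sides, at 31.1% of TPM and 13.7% of counts.

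PwkB6 6 stood apart in log2 CPM over nearly the whole group. In log2 CPM with TMM scaling, a normalization that sets the bulk of transcripts level between libraries, it lay below the mean of the other PwkB6 libraries for 191 of 200 members, with a median difference of -0.59. Over all 56721 tested transcripts the median difference was 0.04. The same shift held among the next 800 (median -0.56). It was of like size in members under 600 bases (-0.59), of 600 to under 1000 bases (-0.60) and of 1000 or more (-0.54). MolfB6 2 lay the other way, below the mean of its cross for 15 members (median difference 0.34), followed by PwkB6 3, below for 32 (0.30), and CastB6 5, below for 16 (0.24). CastB6 6 lay below its cross for 180 members (-0.21). The medians of the other libraries lay between -0.18 and 0.18. PwkB6 6 also had the highest TMM factor of the 16 libraries, 1.19, beside 1.06, 1.00 and 1.01 in the other PwkB6 libraries. A higher factor lowers log2 CPM. In TPM, PwkB6 6 was the lowest of the 16 libraries for 51 members and the highest for 8. Among the 8 was ENSMUST00000024739.14, with 3043 TPM there.

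**Figure D4:**
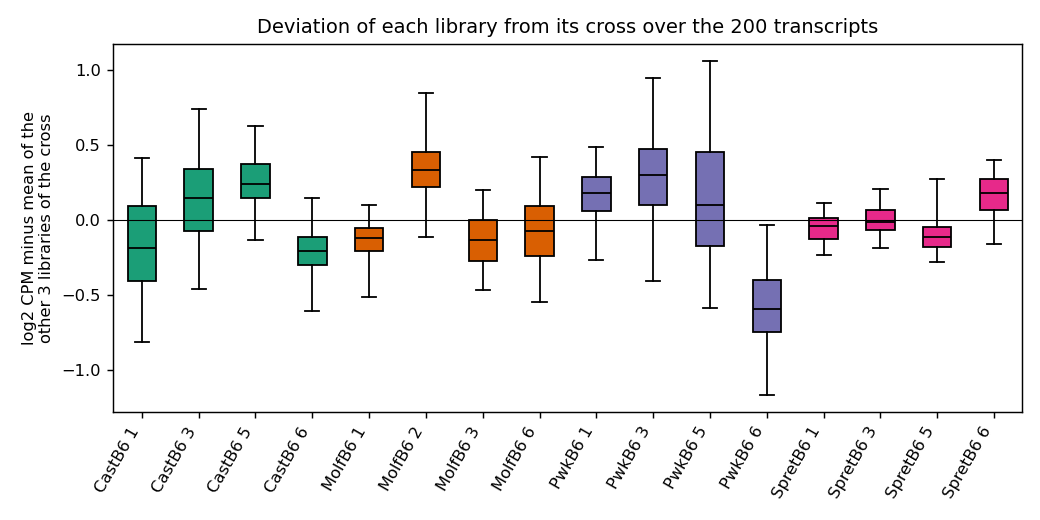
Difference in log2 CPM between each library and the mean of the other 3 libraries of its cross over the 200 members. Boxes span the quartiles with the median as a line, and whiskers span the 5th to 95th percentiles. PwkB6 6 has a median of -0.59, the farthest from 0, and the SpretB6 medians lie between -0.11 and 0.18.

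Members were steadier between libraries than most transcripts, but not than the next 800. The spread depends on level, so these values are a description. The median SD of log2 CPM within a cross, pooled over crosses, was 0.266 for the members, 0.253 among the next 800 and 0.524 over all tested transcripts. It was lowest in SpretB6, at 0.134, and highest in PwkB6, at 0.372, with 0.225 for MolfB6 and 0.231 for CastB6. Without PwkB6 6 the PwkB6 value was 0.199, without MolfB6 2 the MolfB6 value was 0.126, and without SpretB6 6 the SpretB6 value was 0.0762, so in these 3 crosses 1 library moved the value by over 1.5 times. Shorter members spread slightly more, with a median of 0.294 under 600 bases, 0.269 at 600 to under 1000 bases and 0.234 at 1000 or more. In TPM the coefficient of variation over 16 libraries had a median of 16.7%, was under 10% for 34 members and over 50% for 10.

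The steadiest members included a long one. ENSMUST00000024739.14, of 2520 bases, had 2552 ± 81.4 TPM in SpretB6, 2735 ± 260 in PwkB6, 2742 ± 110 in MolfB6 and 2670 ± 83.8 in CastB6. ENSMUST00000147954.2 had 2066 TPM, from 1677 to 2313. ENSMUST00000235307.2 was steady within crosses but not between them, as described below. The least steady were ENSMUST00000118307.2, which was nearly absent in CastB6, ENSMUST00000211679.2, from 144 to 2201 TPM, and ENSMUST00000101375.5, from 80.4 to 1824 TPM. The last ran from 80.4 to 1383 TPM within PwkB6 alone. The log2 CPM of ENSMUST00000118307.2 ran from -4.94 to 3.19 in CastB6, where it stood near the floor at 0 to 51.4 TPM. In the other crosses it had 1034 ± 40.8 TPM (MolfB6), 1017 ± 139 (PwkB6) and 986 ± 143 (SpretB6).

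The members at ranks 2 and 4 had their extremes in the same 3 libraries. ENSMUST00000227614.2, of 444 bases and rank 4, had 2496, 9029, 6573 and 3244 TPM in CastB6 and 4732, 8276, 8561 and 3566 in MolfB6. It had 8019, 7642, 3254 and 7907 in PwkB6 and 5339, 5204, 4449 and 8267 in SpretB6. CastB6 1, MolfB6 6 and PwkB6 5 were the lowest of their crosses, by more than 2-fold against the highest. ENSMUST00000188231.2, at rank 2, was highest in those same 3 libraries, with 15297, 16668 and 17358 TPM, and it stood between 9537 and 14586 in the other 9 libraries of those crosses. The pattern was wider. ENSMUST00000211679.2 was also lowest, and ENSMUST00000086764.7 highest, of each cross there. Over all 56721 tested transcripts, these libraries had the most correlated deviations between crosses. The correlation was 0.22 for CastB6 1 and PwkB6 5, 0.19 for MolfB6 6 and PwkB6 5, and 0.18 for CastB6 1 and MolfB6 6. The mitochondrial share of TPM was also highest of the cross in these 3 libraries, at 10.3, 10.5 and 11.1%. In SpretB6 the library with the highest mitochondrial share, SpretB6 6 at 8.3%, had the highest value of ENSMUST00000227614.2. The part of the mitochondrial share in these values was not tested.

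A joint test for any difference between the 4 crosses called 38 of the 200 members, or 19% (edgeR, threshold 0.05 after Benjamini-Hochberg adjustment over every transcript tested). Over all 56721 tested transcripts the share was 9.73%, and among the next 800 it was 19.4%, close to that of the members. A transcript high in 1 cross can enter the list through that cross. This holds for the comparisons of single crosses below as well, where a rise can rest on the values that admitted the member. Of the 15 members that would leave a list made by the lowest cross mean, 15 were called, and on that list 12% were called in place of 19%. Among the 38, SpretB6 had the lowest mean for 17 and CastB6 the highest mean for 13. DESeq2 called 58 members and gave no adjusted p for 2. With 1 library left out, edgeR called from 30 (without MolfB6 1 or without SpretB6 5) to 57 (without PwkB6 5), and 51 without PwkB6 6. Of the 10 highest members, 2 were called.

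Those 2 were low in SpretB6. ENSMUST00000086764.7, of 396 bases, had 2585, 2553, 3516 and 3079 TPM in SpretB6. It had 5150, 3975, 6847 and 5590 in PwkB6, 6599, 5694, 5495 and 7355 in MolfB6, and 8034, 5434, 7112 and 7431 in CastB6. For SpretB6 versus the rest, the log2 fold change was -1.07 ± 0.17 (edgeR adjusted p = 0.000775). The 4 SpretB6 libraries lay below the 12 others. ENSMUST00000102483.5, of 560 bases, had 2986 to 3197 TPM in SpretB6 and 4337 to 5433 in the others, and its log2 fold change was -0.63 ± 0.11 (edgeR adjusted p = 0.00185).

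Most members differed little between crosses. The ratio of the highest to the lowest cross mean had a median of 1.27, was under 1.1 for 30 members, above 1.5 for 50 and above 2 for 24. Among the next 800 transcripts the median ratio was also 1.27, and 13.9% were above 2, beside 12% of the members. By length, a ratio above 2 occurred in 17 of 102 under 600 bases, 3 of 50 of 600 to under 1000 bases and 4 of 48 of 1000 bases or more. A ratio above 10 occurred in 7 members, all under 600 bases, beside 4.88% of the next 800.

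For every member but ENSMUST00000179797.3, the most abundant, estimated counts were fractional in at least 1 library. Reads were thus divided between these members and other transcripts. The 7 members with a ratio above 10 are among them, and the part of that division in their values was not tested.

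SpretB6 against the mean log level of the other crosses gave 29 called members, 14 of them higher and 15 lower. That is 14.5%, against 7.1% of all tested transcripts and 12.6% of the next 800. By direction, 7% of members were higher and 7.5% lower, against 4.32% and 2.78% of all. The median log2 fold change over the 200 was -0.03, beside 0.00 over all tested, and 0.01 without MolfB6 2. The SpretB6 libraries all lay outside the TPM range of the 12 others for 29 members, 11 above and 18 below. Their share was 14.5%, against 4.37% over all and 12.2% of the next 800. Past 2-fold were 7 of the rises, or 3.5% of members, beside 2.59% of all and 3.75% of the next 800. So were 6 of the falls, or 3% of members, beside 1.42% and 2.25%. Without PwkB6 6, 45 members were called, 14 higher and 31 lower. Without SpretB6 3, 9 were called higher and 11 lower, the fewest in each direction over the 16 leave-outs.

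ENSMUST00000118047.2, of 411 bases, had 3330, 3555, 3522 and 3228 TPM in SpretB6. In CastB6 it had 177, 143, 149 and 170, in MolfB6 167, 114, 138 and 179, and in PwkB6 131, 89.6, 157 and 95.4. The 4 SpretB6 libraries lay far above the 12 others, with a log2 fold change of 4.59 ± 0.15 (edgeR adjusted p = 3.32e-11). The means of the other crosses, 118 to 160 TPM, lie under the border of the list. It is thus a member through SpretB6, and the test uses the values that admitted it. The other named rise, ENSMUST00000212102.2, had 582 ± 48.9 TPM in SpretB6, below its level in MolfB6 and PwkB6. It counts as a rise because the comparison includes CastB6, where it had no reads. Of the falls, ENSMUST00000121545.2 had 8.43, 9.09, 7.41 and 8.42 TPM in SpretB6 and a log2 fold change of -5.22 ± 0.20 (edgeR adjusted p = 1.65e-10). It was also low in CastB6, at 15.6 ± 3.52 TPM, and is a member through MolfB6 (1689 ± 34.4) and PwkB6 (1139 ± 94.4). ENSMUST00000143570.2, of 505 bases, had 275, 218, 304 and 92.1 TPM in SpretB6 (222 ± 93.8), against 1108 ± 286 in PwkB6, 1041 ± 116 in MolfB6 and 899 ± 172 in CastB6. The 4 SpretB6 libraries lay below the 12 others (log2 fold change -2.19 ± 0.26, edgeR adjusted p = 5.43e-05).

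The same comparison for CastB6 gave 27 called members, 18 of them higher and 9 lower. That is 13.5%, against 4.5% of all tested transcripts and 13.9% of the next 800. Higher were 9% of members and 2.83% of all, and lower were 4.5% and 1.67%. The rises were small. Their log2 fold changes had a median of 0.61, and 2 passed 2-fold. Those 2 are 1% of members, beside 1.12% of all tested and 3.5% of the next 800. The falls were large, with a median of -3.87, and 8 of 9 passed 2-fold. Those 8 are 4% of members, beside 0.996% of all and 2.5% of the next 800. The rule bears on this contrast, since the other crosses can keep a transcript absent in CastB6 on the list. A transcript high in CastB6 alone has its mean lowered by them. Small rises beside large falls are therefore partly set by the choice of members. The CastB6 libraries all lay outside the TPM range of the 12 others for 10 members, 5 above and 5 below. Their share was 5%, against 1.95% over all and 5.62% of the next 800. Setting the absent member at the bound given below cannot move the median of the falls, since that member stays the largest fall. Over the 200 the median log2 fold change was 0.17 and 160 members lay above 0. Over all tested transcripts the median was -0.04, and among the next 800 it was 0.19, so the shift is shared by other abundant transcripts. Without CastB6 1, 17 members were called, 9 higher and 8 lower, and without CastB6 5, 16 were called, 8 higher and 8 lower. Without CastB6 3 or MolfB6 1, 11 were called higher and 9 lower. Other leave-outs raised the count of rises, to 28 without PwkB6 6, 26 without MolfB6 2 and 25 without PwkB6 5, with 9 falls each. Under DESeq2 the split was 32 higher and 7 lower.

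ENSMUST00000219591.2, of 596 bases, had 2450, 2131, 2133 and 2357 TPM in CastB6 (2268 ± 161), against 994 ± 77.4 in SpretB6, 910 ± 150 in PwkB6 and 1003 ± 110 in MolfB6. The 4 CastB6 libraries lay above the 12 others (log2 fold change 1.36 ± 0.13, edgeR adjusted p = 1.68e-05). ENSMUST00000107041.5, of 1232 bases, had 1885, 2548, 2230 and 2401 TPM in CastB6 (2266 ± 285), against 1519 ± 87.1 in SpretB6, 1101 ± 198 in PwkB6 and 1067 ± 150 in MolfB6. Its CastB6 libraries also lay above the 12 others (log2 fold change 1.05 ± 0.11, edgeR adjusted p = 2.31e-05).

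ENSMUST00000212102.2, of 351 bases and rank 134, had 0 reads in all 4 CastB6 libraries. It had 1314, 1142, 966 and 1575 TPM in MolfB6, 1481, 897, 2478 and 1422 in PwkB6 and 587, 629, 599 and 514 in SpretB6. With 3 reads over the whole cross as the upper limit of a count of 0, it was at least 16000-fold lower in CastB6 than the mean of the other crosses. That bound covers counting error and not the division of reads. It is the sole member under 1 TPM in every library of a cross. ENSMUST00000118307.2, of 348 bases, had 51.4, 0, 3.89 and 20.7 TPM in CastB6 and 817 to 1163 TPM in the 12 others. The groups do not overlap (log2 fold change -5.63 ± 0.89, edgeR adjusted p = 0.00169).

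For MolfB6 it gave 14 called members, 11 of them higher and 3 lower, or 7% against 2.57% of all tested transcripts and 6.5% of the next 800. Higher were 5.5% of members and 1.37% of all, and lower were 1.5% and 1.2%. Past 2-fold were 7 of the rises, or 3.5% of members, beside 0.844% of all and 2.38% of the next 800. So was 1 of the falls, or 0.5% of members, beside 0.654% and 2.5%. For 8 members every MolfB6 library was beyond the 12 others in TPM, 6 above and 2 below. Their share was 4%, against 1.12% over all and 2.38% of the next 800. The median over the 200 was 0.06, with 132 above 0, beside 0.01 over all tested. Without MolfB6 2 it was -0.06, with 66 above 0, so this lean turned with 1 library. Calls ran from 9 to 14 higher and from 2 to 5 lower over the leave-outs, with the 5 reached without PwkB6 6. ENSMUST00000121545.2, of 483 bases, had 1679, 1737, 1685 and 1656 TPM in MolfB6 and 1165, 1261, 1051 and 1081 in PwkB6. It had 13.4, 11.8, 19.2 and 17.8 in CastB6 and 7.41 to 9.09 in SpretB6. The crosses fell into a high and a low pair, with a ratio of 203 between the highest and the lowest mean. Its log2 fold change in MolfB6 was 5.03 ± 0.13 (edgeR adjusted p = 5.7e-11). Its place on the list comes from the high pair. The other named rise, ENSMUST00000212102.2, had 1249 ± 259 TPM in MolfB6, where the comparison again includes its absence in CastB6. ENSMUST00000235307.2, of 1747 bases, had 611, 410, 613 and 547 TPM in MolfB6 (545 ± 95.3), against 900.1 ± 16 in SpretB6, 803 ± 82.8 in PwkB6 and 915 ± 83.9 in CastB6. The MolfB6 libraries lay below the 12 others (log2 fold change -0.66 ± 0.07, edgeR adjusted p = 4.26e-05). The other named fall, ENSMUST00000118047.2, had 149 ± 29.2 TPM in MolfB6, beside 118 ± 31.5 in PwkB6 and 160 ± 16.3 in CastB6, and the comparison includes its high level in SpretB6.

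For PwkB6 it gave 13 called members, 2 of them higher and 11 lower, or 6.5% against 3.04% of all tested transcripts and 8% of the next 800. Higher were 1% of members and 1.5% of all, and lower were 5.5% and 1.54%. Past 2-fold were both rises, or 1% of members, beside 1% of all and 2% of the next 800. So were 4 of the falls, or 2% of members, beside 0.705% and 2.75%. For 3 members every PwkB6 library was beyond the 12 others in TPM, 1 above and 2 below. Their share was 1.5%, against 1.38% over all and 1.88% of the next 800. The median over the 200 was -0.18, with 168 below 0, beside 0.09 over all tested and -0.23 among the next 800. Without PwkB6 6 it was -0.07, with 137 below 0, and 3 were called higher and 10 lower. Without PwkB6 5, 33 were called, 4 higher and 29 lower, and DESeq2 called 30, 6 higher and 24 lower. Without CastB6 1 or CastB6 3 the rises numbered 4. The split was 4 higher and 11 lower under limma voom. The called rises were ENSMUST00000212102.2, with 1570 ± 660 TPM in PwkB6, and ENSMUST00000121545.2, with 1139 ± 94.4. Both were also high in MolfB6. ENSMUST00000118533.2, of 438 bases, had 69.6, 62.1, 50.5 and 43.8 TPM in PwkB6 and 68.9, 6.36, 10.2 and 24.6 in CastB6. It had 1372, 1486, 1444 and 1243 in MolfB6 and 1628, 1664, 1568 and 1890 in SpretB6. PwkB6 and CastB6 formed the low pair, and the log2 fold change in PwkB6 was -2.99 ± 0.50 (edgeR adjusted p = 0.00341). MolfB6 and SpretB6 put this transcript on the list. The other named fall was ENSMUST00000118047.2, whose values are given above.

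**Figure D5:**
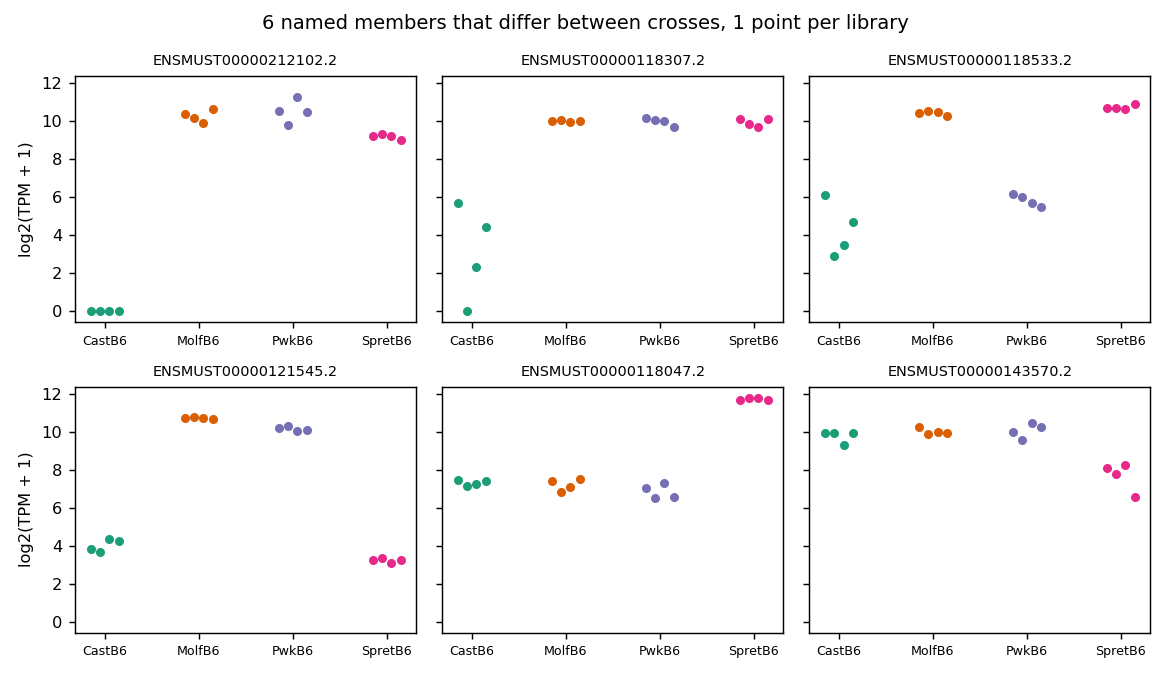
Log2(TPM + 1) of 6 named members in each library, 1 point per library, by cross. ENSMUST00000212102.2 is at 0 in the 4 CastB6 libraries, ENSMUST00000118047.2 is high in SpretB6 alone, and ENSMUST00000118533.2 and ENSMUST00000121545.2 split the crosses into pairs.

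Because the rule averaged these same libraries, the list of a single cross overlaps the members by construction, and the counts are a description. The 200 highest nuclear transcripts of a single cross included 190 of the members in MolfB6, 185 in PwkB6, 183 in CastB6 and 180 in SpretB6, and 155 members were in the list of each of the 4 crosses. In single libraries, 129 members were among the 200 highest in all 16. Of the members, 43 were called in at least 1 of the 4 comparisons of a cross with the others, or 21.5%, beside 11.6% of all tested transcripts and 21.1% of the next 800. Of these, 18 were called in 1 comparison, 14 in 2, 7 in 3 and 4 in all 4. These comparisons share libraries, so a member high in 1 cross is pushed toward a call as lower in the others.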

How the data were processed

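Each of the 16 libraries has 1 deposited table with the length, effective length, TPM and estimated count of every transcript, per the file headers. The deposited estimated counts can be fractional, since a read matching more than 1 transcript is shared out. The deposited TPM values are scaled to the same sum in every library. Salmon, DESeq2 and mm10 are named in the submitters' processing notes. For versions, transcript set and settings, the sources used here give nothing. Groups and library numbers came from the titles.

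Estimated counts were rounded and tested with edgeR 4.0.16 (R 4.3.3), after filterByExpr (minimum count 10, minimum total 15) and TMM scaling, with 1 quasi-likelihood fit over all 16 libraries. The filter kept 56721 transcripts, among them all 200 members. The Benjamini-Hochberg adjustment ran over all of these, with a threshold of 0.05. The SE of a log2 fold change is its size divided by the square root of F. Log2 CPM used a prior count of 2. Estimates within 0.001 of a whole number were taken as whole. The fit was also run on simulated counts, with changes set in SpretB6 only. Those counts held no divided reads and no shift of a whole library, so that run cannot speak to either. Alternatives were DESeq2 1.42.0, limma 3.58.1 voom, other scaling, no filter, other member lists, the library number as a block and leaving out each library.

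The next 800 transcripts by mean TPM were chosen as a comparison after the files had been seen. Named members were the 10 of highest mean TPM, the 2 largest called rises and falls of each cross, the 3 most and least variable within crosses, the 2 shortest and longest, those at the border of the list and any under 1 TPM throughout a cross. The members and lists were chosen with earlier results of these data known. Gene lists, marker genes and sequences were not used, since 0 IDs matched the gene table.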

Additional observations from a re-analysis of the deposited data

Results flagged for a closer look

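Library values were compared within each cross for the named transcripts and for 4 shares of the members, in 140 groups of 4 libraries. In 9 groups 1 library lay far from the other 3, where a rate of 1 in 20 gives 7, and the groups are not independent. ENSMUST00000227614.2 stood at 3254 TPM in PwkB6 5 and 7642 to 8019 in the other PwkB6 libraries. ENSMUST00000188299.2, at rank 9, stood at 5058 TPM in the same library and 1945 to 2356 in the others. ENSMUST00000102483.5 stood at 2986 TPM in SpretB6 1 and 3164 to 3197 in the others. ENSMUST00000190277.2, at rank 10, stood at 2538 TPM in CastB6 3 and 3496 to 3634 in the others. ENSMUST00000143570.2 stood at 642 TPM in CastB6 5 and 965.3 to 994.2 in the others. ENSMUST00000215151.2 stood at 1841 TPM in MolfB6 6 and 2353 to 2415 in the others. The members took 36.14% of TPM in SpretB6 6 and 33.88 to 33.97% in the other SpretB6 libraries, and 17.79% of estimated counts there against 16.7 to 16.83%. In MolfB6 2 they took 19.75% of estimated counts, against 17.64 to 17.89% in the other MolfB6 libraries.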

How the results depend on the processing

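The share of members called in the joint test, 19%, was 29.3% under DESeq2 and 12% for members chosen by the lowest cross mean. In MolfB6, 7% became 4% for members by mean CPM and 4% for 100 members. In PwkB6, 6.5% became 15.2% under DESeq2, 4% for members by mean CPM and 3% for 100 members. In SpretB6, 14.5% became 8% for members by mean CPM and 8% for 100 members. With 1 library left out, the share ranged from 15 to 28.5% in the joint test, from 8 to 18.5% in CastB6, from 5.5 to 9.5% in MolfB6, from 5 to 16.5% in PwkB6 and from 10 to 22.5% in SpretB6. The TPM share, 35.5%, was 39% without mitochondrial IDs, 17.6% as a share of estimated counts, 27.3% for 100 members and 43.9% for 400. The median length, 597 bases, was 1905 for members by mean CPM, 681 for 400 members and 445.8 as effective length. Of the values of named transcripts, 350 log2 fold changes kept their direction and side of the threshold, and 678 joint tests kept their side. With 1 PwkB6 library left out, 2 joint tests passed it, ENSMUST00000042235.15 without PwkB6 6 and ENSMUST00000188299.2 without PwkB6 5. The named rises and falls were picked as the largest called ones of these same data, which makes it likely that they keep their side.

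With the library number as a replicate block, 3.5% of members were called in MolfB6, and the other comparisons stayed within 1.5 times. The correlation of deviations exceeded 0.1 in 1 of 21 same-number pairs and 5 of 75 different-number pairs. Of the 16 libraries, 5 correlated best with their own number. These values cannot decide whether the numbers pair libraries, since libraries handled together need not correlate. Every member had a mean of at least 1618 reads per library over the 16, though 2 members had 0 reads in at least 1 CastB6 library. What depth adds to the errors was not tested, and the division of shared reads is in none of them.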

Other observations

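Members that were low in CastB6 ordered its libraries in opposite ways, a pattern noticed after the values were seen. Of the 8 members lowest in CastB6 with a ratio above 2 between crosses, ENSMUST00000212102.2 was at 0 throughout. For 3 others, CastB6 1 was highest, followed by CastB6 6, CastB6 5 and CastB6 3. They are ENSMUST00000118307.2, ENSMUST00000118533.2 and a transcript of 402 bases at rank 90, which had 148, 61.9, 27.2 and 15.8 TPM in that order of libraries and 1349 to 1917 TPM in the 12 others. For the other 4, the order was the reverse. One of these, of 518 bases at rank 170, had 96 TPM in CastB6 1 and 178 TPM in CastB6 3, against 1461 to 2014 TPM in SpretB6. Both of these transcripts were picked after their values were seen, and no test was run on the orders. The orders were not particular to members low in CastB6. ENSMUST00000086764.7, whose mean was highest in CastB6, had 8034, 7431, 7112 and 5434 TPM in CastB6 1, CastB6 6, CastB6 5 and CastB6 3. ENSMUST00000047864.11, with a lower mean in SpretB6, had 931, 852, 768 and 680 TPM in CastB6 3, CastB6 5, CastB6 6 and CastB6 1.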
